A study of Arabidopsis thaliana with 6 samples.

Results

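The tetrapyrrole pathway of *Arabidopsis* was examined in *hy5* and wild-type (WT) seedlings through 33 genes, of 29030 loci with a probe on the array. The genes were taken by locus code from a fixed list. It runs from glutamyl-tRNA reductase (*HEMA1*) to chlorophyll synthase, with the heme and bilin branch, the regulators *FLU* and *GUN4*, and the breakdown genes *SGR1* and *NYC1*. The tested plants were *hy5* (SALK_096651), a single T-DNA insertion line, and the plants they were set against were WT, both of cultivar Col. All seedlings were 3 days old, were grown on medium without sucrose in continuous white light before harvest. Total RNA was labeled with Cy3 and hybridized to 6 one-color Agilent arrays, 3 per genotype. The labels do not say whether the 3 arrays of a genotype came from separate plantings. The p-values therefore measure only the spread between these arrays, which may be technical.

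Plastids make chlorophyll, heme and the phytochrome chromophore from one pool of precursors. Glutamate bound to a tRNA is turned into 5-aminolevulinic acid (ALA), and ALA is built up step by step into protoporphyrin. There the pathway divides: magnesium chelatase leads to chlorophyll, and ferrochelatase leads to heme and on to the bilins. Free intermediates are damaging in light, so the entry steps are under tight control. HY5 is a bZIP transcription factor that promotes the switch of seedlings to growth in light, of which greening is a visible part.

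All values below are a spot's signal divided by the 75th percentile of its array, and differences are on the log2 scale, *hy5* minus WT. The *hy5* arrays were brighter: their 75th percentile lay between 981 and 1057 in intensity, against 487 to 558 for the WT arrays, so every difference is relative to it. Spots well above background made up 75.4% to 78.7% in *hy5* and 67.0% to 71.2% in WT. No spot was saturated. Each genotype had a slide of its own, scanned at its own time, so slide, scan and genotype cannot be told apart. The *HY5* (AT5G11260) transcript itself had a signal of 0.0223 ± 0.00569 in *hy5* and 1.31 ± 0.0716 in WT (SD, n = 3 arrays each), which differed by -5.91 (limma adjusted p = 7.57e-06).

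Most of the 33 genes moved little. Some fell and some rose, and the chlorophyll branch held both. The entry enzyme *HEMA1*, 3 of 4 magnesium chelatase subunit genes with *GUN4*, the cyclase gene *CRD1*, the chlorophyll b enzyme *CAO* and the phytol enzyme *CHLP* fell. So did *HEMB1*, *HEMD*, *HEME1* and *NYC1*. *PORA*, *PORB* and the bilin genes *HO1* and *HY2* rose. All 33 genes had a probe well above background on all 6 arrays. By limma, at an adjusted p under 0.05 over 21590 genes, 12 of the 33 (36.4%) were lower in *hy5* and 4 (12.1%) were higher. Over all genes tested, 26.6% were called lower and 26.3% higher, and 52.8% were called in either direction, against 16 of 33 (48.5%) here. The share called is thus close to that of all genes. The changes were small: at a change of at least 2-fold as well, 1 of 33 genes (3.03%) was called, a higher one, against 11.4% of all genes (6.55% higher and 4.84% lower). The 33 genes had a median difference of -0.15, and all genes tested one of -0.0044. This order depended on the processing. With normexp background correction the medians were -0.13 for the 33 genes and -0.20 for all genes. Without a filter on dim probes they were -0.15 and -0.18. In 22 of 33 genes the arrays of the genotypes did not overlap, which was so for 62.5% of all genes.

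**Figure D1:**
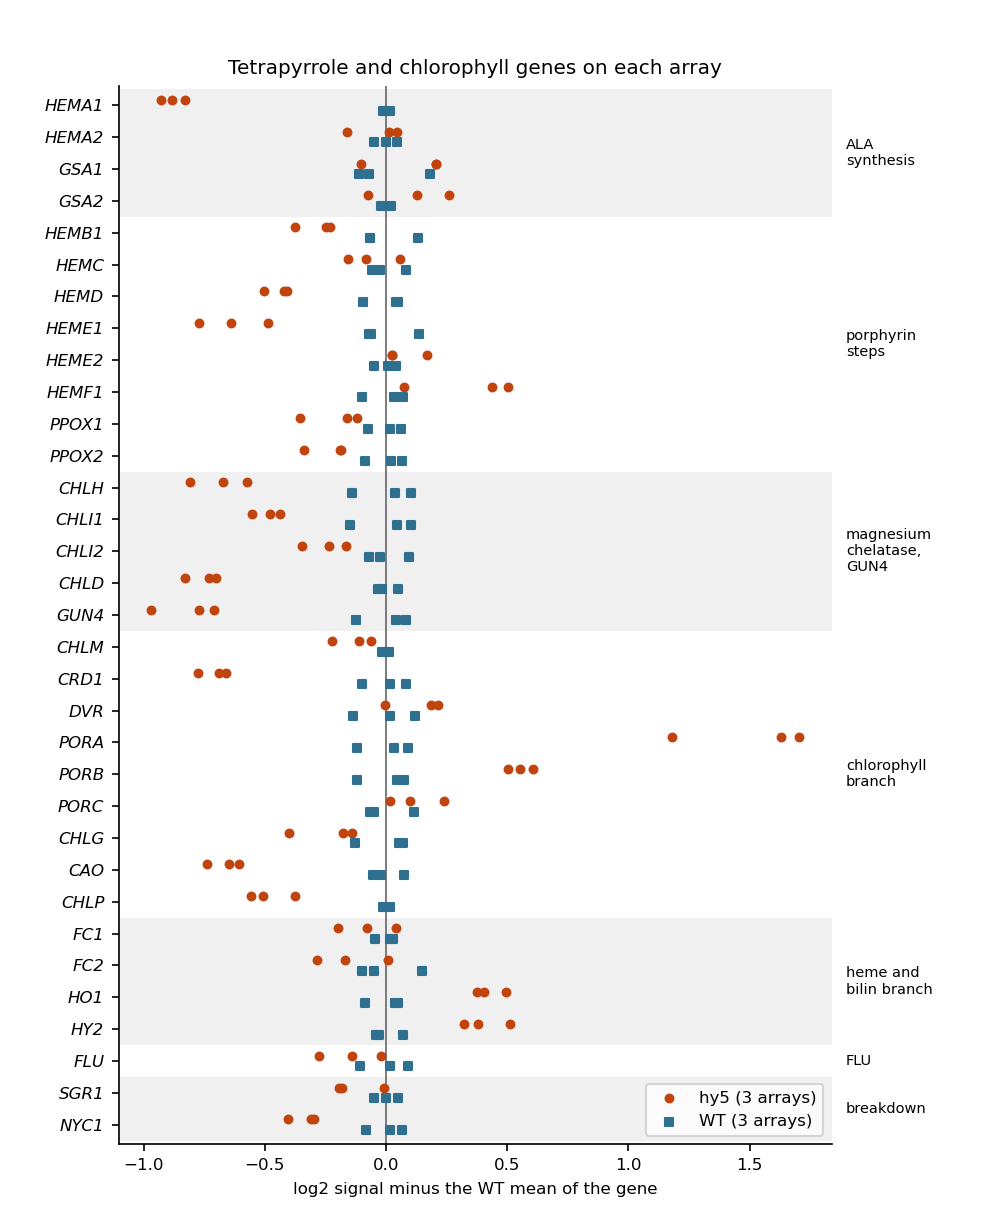
Log2 signal of each of the 33 genes on each array (horizontal axis), after subtraction of the mean of the 3 WT arrays, with genes in pathway order down the page. Circles are the 3 *hy5* arrays and squares the 3 WT arrays. *HEMA1*, *GUN4*, *CHLD* and *CRD1* lie far to the left in *hy5*, and *PORA* lies far to the right.

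In RNA of pooled tissues, fewer green cells and less RNA per green cell cannot be told apart, so genes of green tissue were measured beside the pathway. Of 10 such genes, among them *RBCS1A* (the Rubisco small subunit) and *RCA* (Rubisco activase), 9 fell and the median was -0.45. For this and the lists below, 26.6% of all genes were called lower, 26.3% higher and 6.55% higher past 2-fold. These lists were chosen with earlier results of these data known. The summed signal of the green tissue genes was 2099 to 2302 on the *hy5* arrays, against 2765 to 3151 on the WT arrays. *RBCS1A*, the brightest of them, had 363 ± 26.3 in *hy5* and 493 ± 59.2 in WT (SD, n = 3 each), on a probe that near-identical Rubisco genes may share. Under quantile normalization 3 of the 10 green tissue genes fell and the median was -0.095. Seed genes stood apart in the other direction. All 11 (*EM1*, *EM6*, *CRA1*, *CRB*, *CRC*, *OLEO1*, *OLEO2*, *SESA1*, *SESA2*, *ABI3* and *LEA*) were called higher. The 8 genes well above background on all 6 arrays rose past 2-fold, by 1.27 to 5.18. *CRB* and *OLEO2* were well above background on 2 of 3 WT arrays and *SESA1* on 0. All of these passed the filter on dim probes through *hy5* alone. With normexp background correction, 9 of the 11 rose and 1 fell. By the main scaling the summed seed signal was 9.75 to 16.7 in *hy5* and 0.85 to 1.65 in WT. *CRA1*, a cruciferin storage protein gene and the brightest of them, had 3.61 ± 1.29 in *hy5* and 0.379 ± 0.148 in WT (SD, n = 3 each). Of 8 root genes tested, 5 rose and *SCR*, a regulator of the endodermis, fell, against 4 higher and 3 lower with normexp. The summed root signal was 43.5 to 50.7 in *hy5* and 20.4 to 24.2 in WT. In *hy5* most of it came from the tonoplast aquaporin gene *TIP2;3*, with 28.4 ± 2.97 in *hy5* and 3.97 ± 0.749 in WT (SD, n = 3 each). The part of tissue make-up and seedling stage in the pathway's values was not tested.

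*HEMA1* (AT1G58290) encodes glutamyl-tRNA reductase, the first committed enzyme and the main point of control of ALA synthesis. Its signal was 18.4, 19.0 and 19.7 in *hy5*, against 34.7, 34.9 and 35.4 in WT. The *hy5* arrays lay at 0.543 of the WT level, with a narrow spread in both genotypes. This was the lowest difference of the 33 genes, at -0.88 (standard error 0.0819, limma adjusted p = 0.000167), and only 6.82% of all genes tested lay at or below it. Its paralog *HEMA2* (AT1G09940), known for expression outside green tissue, had 1.25, 1.41 and 1.44 in *hy5*, against 1.40, 1.45 and 1.35 in WT. The arrays overlapped, and the difference was -0.035 with a 95% interval of -0.25 to 0.18. *GSA1* (AT5G63570) and *GSA2* (AT3G48730) encode the aminomutase that completes ALA synthesis. *GSA1* differed by 0.10 (95% interval -0.19 to 0.40) and *GSA2* by 0.11 (-0.14 to 0.35), and both overlapped between genotypes. The fall at the entry of the pathway was thus measured in 1 of 4 genes.

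*FLU* (AT3G14110), which binds glutamyl-tRNA reductase and holds back ALA synthesis in the dark, was not called. It had 15.3, 18.2 and 16.8 in *hy5* and 18.7, 19.7 and 17.1 in WT, a difference of -0.15 (95% interval -0.39 to 0.098, limma adjusted p = 0.272).

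Of 8 genes for the steps from ALA to protoporphyrin, 3 fell, 0 rose and 5 were not called, beside 26.6% lower and 26.3% higher over all genes. *HEME1* (AT3G14930), for uroporphyrinogen decarboxylase, changed most. It had 11.96, 13.1 and 14.6 in *hy5*, against 22.4, 19.4 and 19.5 in WT. The highest *hy5* array lay well below the lowest WT array, with a difference of -0.63 (standard error 0.111, limma adjusted p = 0.00255). *HEMD* (AT2G26540), for uroporphyrinogen III synthase, had 1.38, 1.29 and 1.37 in *hy5* and 1.89, 1.90 and 1.72 in WT, a difference of -0.44 (standard error 0.0886, limma adjusted p = 0.00456). *HEMB1* (AT1G69740), for ALA dehydratase, was close to the threshold, at -0.29 (limma adjusted p = 0.0413). Without any one of the 6 arrays it was not called, with limma adjusted p of 0.0677 to 0.129 and a difference of -0.32 to -0.22.

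*HEMF1* (AT1G03475), for coproporphyrinogen oxidase, pointed the other way and was not called. It had 12.03, 15.5 and 16.2 in *hy5* and 11.97, 10.6 and 11.7 in WT, so that 1 *hy5* array lay next to the WT arrays. Its difference was 0.34 (95% interval 0.035 to 0.64, limma adjusted p = 0.0606). Without *hy5* replicate 1 it was 0.47 (limma adjusted p = 0.00938). *PPOX1* (AT4G01690) and *PPOX2* (AT5G14220), the protoporphyrinogen oxidase genes, were at -0.21 and -0.24 with limma adjusted p of 0.107 and 0.0645. *HEMC* (AT5G08280), for porphobilinogen deaminase, was at -0.061 (95% interval -0.29 to 0.16) and *HEME2* (AT2G40490) at 0.074 (-0.13 to 0.28).

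Magnesium chelatase inserts magnesium into protoporphyrin and so commits it to chlorophyll. Of its subunit genes and the activator *GUN4* (AT3G59400), 4 of 5 fell, against 26.6% of all genes, and *CHLI2* was not called. The median was -0.68. All 5 were lower on every *hy5* array than on any WT array, and 62.5% of all genes did not overlap in either direction. *GUN4* binds porphyrins and stimulates the chelatase. Its signal was 21.9, 25.0 and 26.1 in *hy5*, against 45.3, 39.2 and 44.1 in WT, a difference of -0.82 (standard error 0.108, limma adjusted p = 0.000737). *CHLD* (AT1G08520), a subunit of the ATPase complex, had 10.73, 9.83 and 10.5 in *hy5* and 17.03, 18.1 and 17.3 in WT. Its difference was -0.75 (standard error 0.0859, limma adjusted p = 0.000396). *CHLH* (AT5G13630), the porphyrin-binding subunit also known as *GUN5*, had 152, 179 and 167 in *hy5* and 273, 241 and 286 in WT. The groups were far apart, with a difference of -0.68 (standard error 0.107, limma adjusted p = 0.00157). Under quantile normalization this was -0.35 (limma adjusted p = 0.00785).

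The ATPase subunit CHLI has a pair of genes. *CHLI1* (AT4G18480) had 60.3, 63.6 and 65.3 in *hy5*, against 95.03, 91.3 and 79.9 in WT, a difference of -0.49 (standard error 0.0994, limma adjusted p = 0.00498). *CHLI2* (AT5G45930) had 8.72, 8.09 and 9.16 in *hy5* and 10.1, 10.97 and 9.78 in WT, a difference of -0.25 (95% interval -0.47 to -0.028, limma adjusted p = 0.0583). The arrays of *CHLI2* did not overlap between genotypes either, and the gene was not called.

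After magnesium chelatase, 3 of 9 genes of the chlorophyll branch were lower, 2 higher and 4 not called. These shares are near those of all genes, 26.6% lower and 26.3% higher. *CRD1* (AT3G56940), also called *CHL27*, encodes a subunit of the cyclase that forms the fifth ring. It had 144, 156 and 153 in *hy5*, against 249, 229.8 and 261 in WT, a difference of -0.71 (standard error 0.0917, limma adjusted p = 0.000678). *CAO* (AT1G44446) makes chlorophyll b from chlorophyll a and had 13.0, 13.9 and 14.3 in *hy5*, against 21.4, 20.9 and 22.9 in WT. Its difference was -0.66 (standard error 0.0886, limma adjusted p = 0.000768). *CHLP* (AT1G74470), the geranylgeranyl reductase that supplies phytol, had 117, 132 and 121 in *hy5* and 171, 174 and 172 in WT, a difference of -0.48 (standard error 0.0884, limma adjusted p = 0.00319). Quantile normalization gave -0.42 for *CRD1* and -0.28 for *CHLP*, both still called. *CHLM*, *DVR* and *CHLG* were not called. *CHLM* (AT4G25080), the methyltransferase before *CRD1*, was at -0.13 (95% interval -0.33 to 0.069). *DVR* (AT5G18660), the vinyl reductase, was at 0.13 (-0.12 to 0.38), and *CHLG* (AT3G51820), chlorophyll synthase, at -0.24 (-0.49 to 0.015).

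Protochlorophyllide oxidoreductase (POR) carries out the step that needs light, and *Arabidopsis* has genes for 3 forms. *PORA* (AT5G54190) is known as the form of dark-grown seedlings, whose transcript is lost in light, while *PORB* (AT4G27440) and *PORC* (AT1G03630) are used in light. *PORA* had the highest difference of the 33 genes and the only one past 2-fold. Its signal was 0.377, 0.276 and 0.397 in *hy5*, against 0.112, 0.125 and 0.129 in WT. Every *hy5* array lay more than 2-fold above every WT array, although both genotypes were below the 75th percentile. The difference was 1.505 (standard error 0.150, limma adjusted p = 0.000227), a 2.84-fold rise. With normexp, whose offset weighs most on dim probes, it was 0.79. *PORB* had 78.2, 75.3 and 72.9 in *hy5* and 54.1, 47.3 and 53.0 in WT, a difference of 0.55 (standard error 0.0928, limma adjusted p = 0.00211). *PORC* had 11.1, 9.48 and 10.0 in *hy5* and 10.1, 8.96 and 9.06 in WT. Its arrays overlapped, with a difference of 0.12 (95% interval -0.12 to 0.35).

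**Figure D2:**
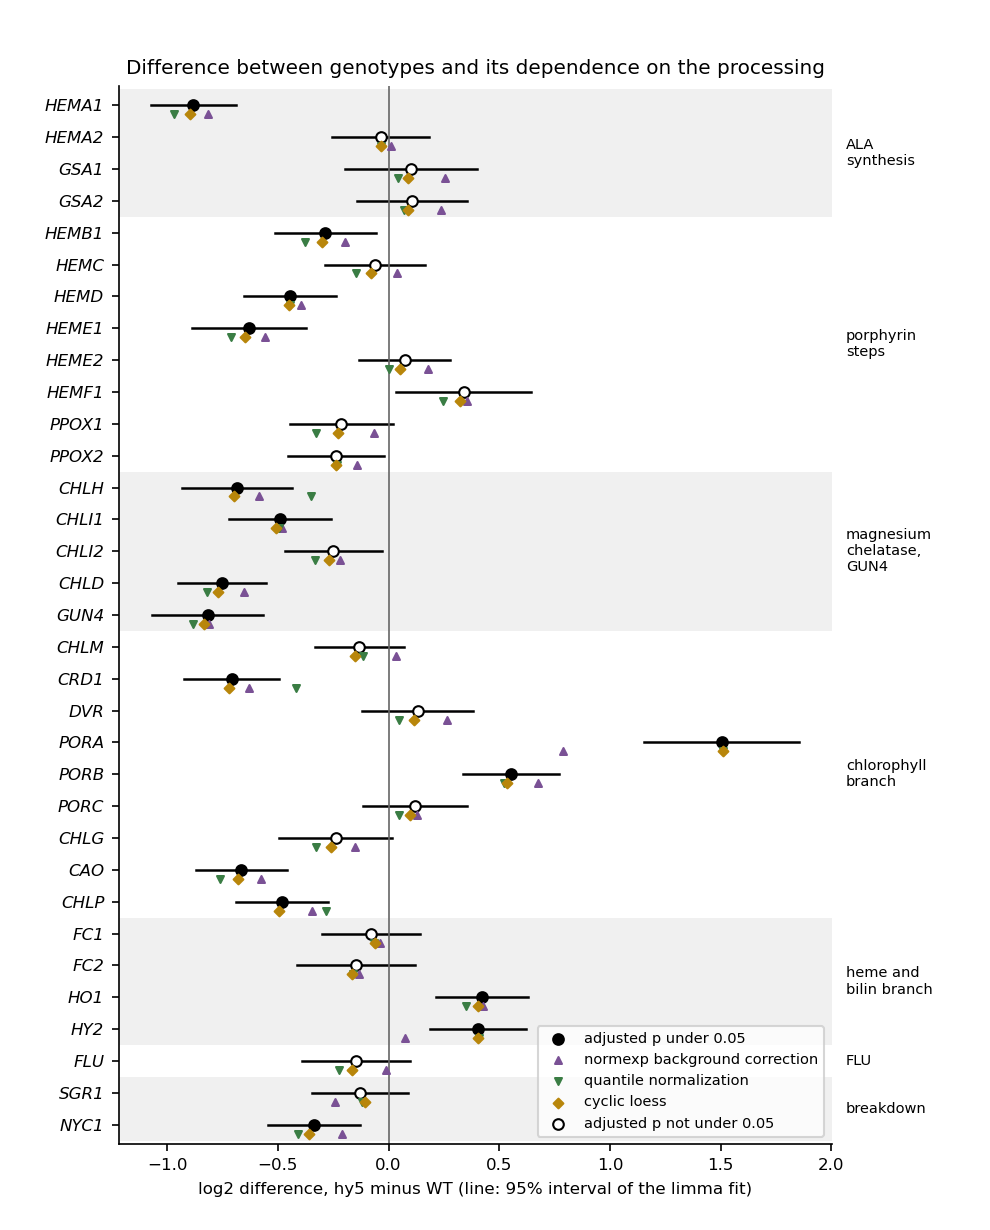
Log2 difference of each gene, *hy5* minus WT (horizontal axis), with its 95% interval from limma, in pathway order down the page; filled circles have an adjusted p under 0.05 and open circles do not. Triangles and diamonds give the same difference under normexp, quantile normalization and cyclic loess, which move *PORA* to 0.79 (normexp) and *CHLH* to -0.35 (quantile) and leave most genes near their value.

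Of 4 genes of the heme and bilin branch, 2 rose, 0 fell and 2 were not called, beside 26.3% higher and 26.6% lower over all genes. Both ferrochelatase genes stayed near WT, and the bilin genes *HO1* and *HY2* rose. *HO1* (AT2G26670) encodes the heme oxygenase that opens heme to biliverdin. It had 10.9, 10.2 and 9.99 in *hy5*, against 7.26, 7.92 and 7.99 in WT, a difference of 0.42 (standard error 0.0891, limma adjusted p = 0.00577). *HY2* (AT3G09150) turns biliverdin into phytochromobilin, the chromophore of the phytochromes. It had 0.202, 0.210 and 0.230 in *hy5* and 0.170, 0.157 and 0.158 in WT, a difference of 0.40 (standard error 0.0928, limma adjusted p = 0.00849). *HY2* is dim, and with normexp its difference was 0.073 (limma adjusted p = 0.447). *FC1* (AT5G26030) and *FC2* (AT2G30390) insert iron to form heme. *FC1* was at -0.078 (95% interval -0.30 to 0.14) and *FC2* at -0.15 (-0.42 to 0.12), with overlapping arrays.

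At the breakdown end, *NYC1* (AT4G13250), which reduces chlorophyll b, had 7.29, 7.23 and 6.77 in *hy5* and 9.05, 9.37 and 8.46 in WT. It fell by 0.34 on the log2 scale (standard error 0.0886, limma adjusted p = 0.0150). It was not called without WT replicate 1, WT replicate 2 or *hy5* replicate 3, with limma adjusted p of 0.0522, 0.0614 and 0.0536, and with normexp its difference was -0.21 (limma adjusted p = 0.0337). *SGR1* (AT4G22920), which removes magnesium from chlorophyll a, was at -0.13 (95% interval -0.34 to 0.088) and overlapped between genotypes.

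Whether genes for the same enzyme changed unequally was asked with their ratio within each array, for 9 pairs. The log2 ratio of *HEMA1* over *HEMA2* was 3.797 ± 0.0688 in *hy5* and 4.64 ± 0.0600 in WT (SD, n = 3 each), a difference of -0.85. *HEME1* over *HEME2* was 0.50 ± 0.166 in *hy5* and 1.21 ± 0.121 in WT, a difference of -0.71. *CHLI1* over *CHLI2* differed by -0.24. The ratios with *PORA* moved the other way, by 1.39 over *PORC* and 0.95 over *PORB*, and *PORB* over *PORC* differed by 0.44. With normexp the difference was 0.66 for *PORA* over *PORC*, 0.55 for *PORB* over *PORC* and 0.11 for *PORA* over *PORB*. The unequal change of *PORA* and *PORB* thus depended on the background correction. By the main scaling the ratios of the genotypes did not overlap in these 6 pairs. The two-sided exact permutation test gave p = 0.1 for each, the smallest that 3 against 3 arrays allow, and an adjusted p of 0.15 over the 9 pairs. For *GSA1* over *GSA2*, *PPOX1* over *PPOX2* and *FC1* over *FC2* the ratios overlapped, with differences of -0.0024, 0.025 and 0.071.

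**Figure D3:**
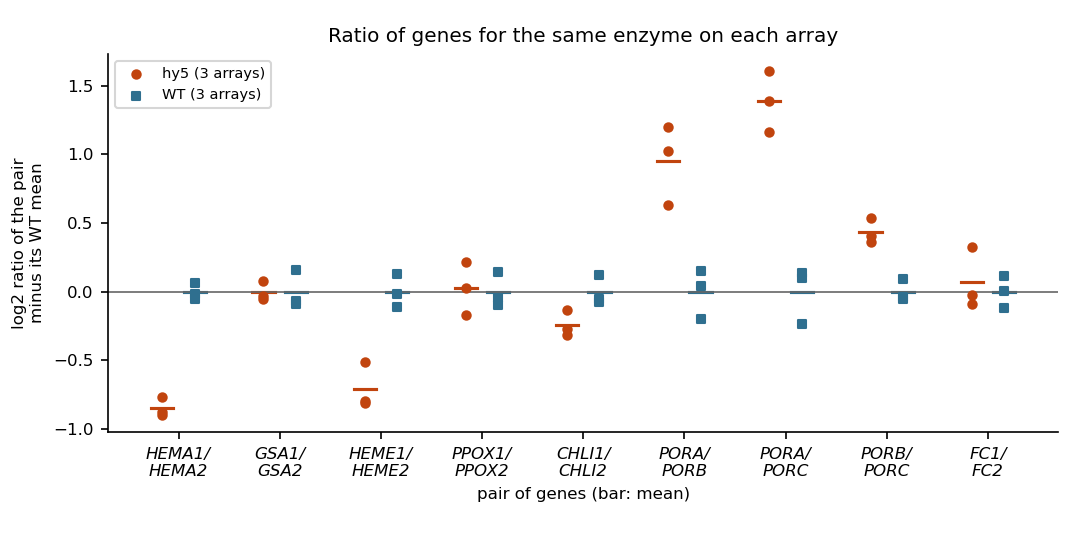
Log2 ratio of the genes of each pair on each array, after subtraction of the pair's WT mean (vertical axis). Circles are *hy5* arrays, squares WT arrays and bars their means; the ratios of *HEMA1*, *HEME1* and *CHLI1* to their paralogs are low in all 3 *hy5* arrays, and those with *PORA* are high.

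The array holds 53 probes for the 33 genes, and 15 genes have more than 1. All 20 further probes could be tested, and 17 had the sign of the gene's brightest probe. *PORB* had 5 probes, with differences of 0.53 to 1.04, and those of its second transcript model were all higher in *hy5*. *PORA* had a second probe at 1.48 and another that was not well above background on any WT array, at least 1.04-fold higher in *hy5*. That dim probe passed the filter through *hy5* alone. The second *CHLD* probe was at -0.86, the second *CHLI1* probe at -0.31, the second *NYC1* probe at -0.42 and the further *CHLP* probes at -0.47 and -0.43, all called over the probes tested. Other probes moved a call. The second *HEMF1* probe was called, at 0.58 (limma adjusted p = 0.00267), and so was the second *PORC* probe, at 0.39 (limma adjusted p = 0.0194). The second *HO1* probe, at 0.27, was not called (limma adjusted p = 0.0564). The *HEMB1* probe for its second transcript model was at -0.084 and was not called. For *HEMC*, *PPOX1* and *FC1* the further probe had the opposite sign, and none of those probes was called.

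**Figure D4:**
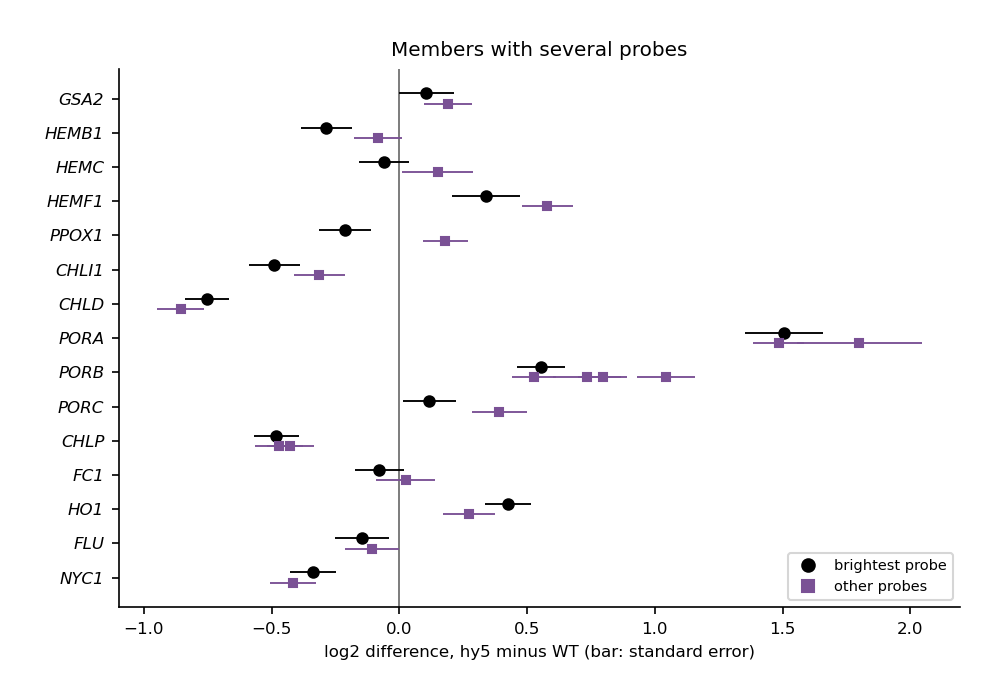
Log2 difference, *hy5* minus WT (horizontal axis), of every probe of the 15 genes with more than 1 probe, with its standard error. Circles are the brightest probe of a gene and squares its other probes, which lie on the other side of 0 for *HEMC*, *PPOX1* and *FC1*.

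A further list held 22 genes around the same pathway, of which 20 could be tested. Of these, 9 fell, 4 rose and 7 were not called, beside 26.6% lower and 26.3% higher over all genes, and the median was -0.27. Changes were again under 2-fold. *CLH2*, a chlorophyllase gene, had 0.434 ± 0.0257 in *hy5* and 0.846 ± 0.0780 in WT (SD, n = 3 each), a difference of -0.96 (limma adjusted p = 0.00031). Its paralog *CLH1* had 2.79 ± 0.343 in *hy5* and 1.91 ± 0.133 in WT, a difference of 0.54 (limma adjusted p = 0.00617). *PAO*, the oxygenase that opens the chlorophyll ring, fell by 0.78 on the log2 scale, and *SGR2*, a paralog of *SGR1*, was 0.77 higher. *HO2*, a relative of *HO1*, had 0.745 ± 0.122 in *hy5* and 1.09 ± 0.107 in WT, a difference of -0.56 (limma adjusted p = 0.0137) against the rise of *HO1*. *GBP*, which tethers glutamyl-tRNA reductase to the membrane, rose by 0.72. *HO3* and *HO4* were too dim in both genotypes to be tested.

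**Figure D5:**
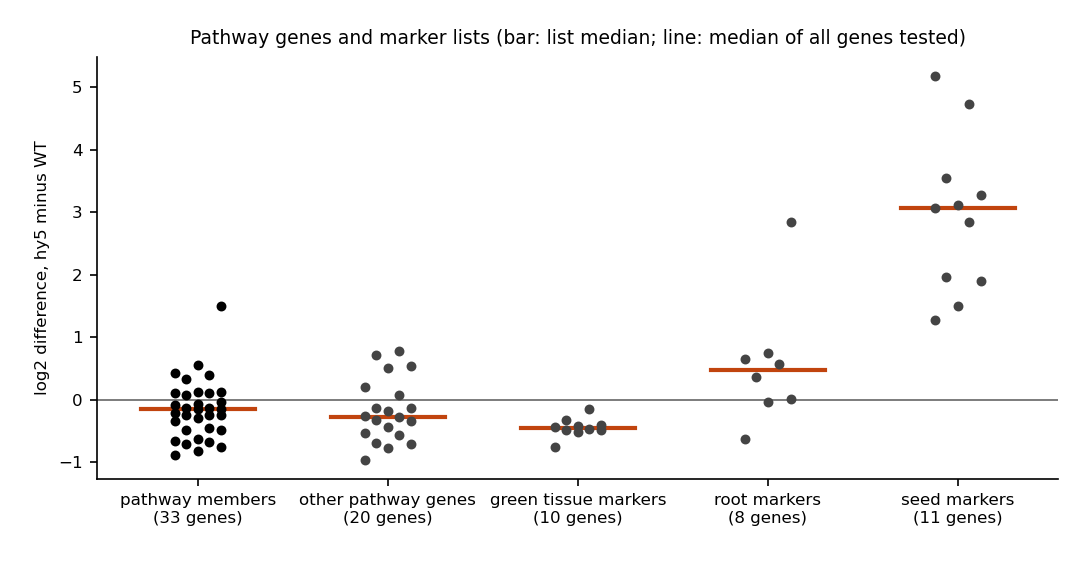
Log2 difference, *hy5* minus WT (vertical axis), of the 33 pathway genes, the 20 further pathway genes tested and the green tissue, root and seed genes. Each point is a gene, the bars are list medians and the line is the median of all genes tested; the pathway medians lie at -0.15 and -0.27.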

How the data were processed

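Scanner output deposited for each array (Agilent Feature Extraction 10.7.3 per the labels) gave background-subtracted spot intensity on a linear scale. A deposited table gave the same signals as a ratio to the 75th percentile of an array. The scanner signals were put on the log2 scale relative to that percentile over non-control spots, and replicate spots were averaged. The 30 probes with an outlier flag were left out. Testing needed a probe to exceed background clearly on the 3 arrays of *hy5*, of WT or of both, and the brightest such probe stood for its gene. The difference of *hy5* from WT was fitted by limma 3.58.1 (R 4.3.3), two-sided, with Benjamini-Hochberg adjustment over all 21590 genes, and the fit was tested on simulated arrays. Alternatives changed the background correction, the scaling, the filter, the choice of probe, the test and the arrays used. The number of arrays limits the precision. Locus codes were matched to the RefSeq gene table of TAIR10.1, which held all 33. The array design is older than this assembly, so no coordinates are given. The pathway genes and lists were chosen with earlier results of these data known. All 33 genes, *HY5*, *CLH1*, *HO2*, the brightest gene of each marker list and list genes past 2-fold were named by rule. *CLH2*, *PAO*, *SGR2*, *GBP*, *RCA* and *SCR* were chosen after their values were seen. No sequence was printed and the planned count of promoter motifs was not run.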

Additional observations from a re-analysis of the deposited data

How the results depend on the processing

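Under 18 alternatives, 9 of the 12 lower and 2 of the 4 higher genes kept their call in every one. The exceptions were *HEMB1*, *NYC1* and *CHLI1* among the lower and *PORA* and *HY2* among the higher genes. *CHLI1* and *PORA* were lost only with the methods' t-test after Benjamini-Hochberg adjustment (adjusted p of 0.0641 and 0.0676). *HEMB1* was also lost with normexp, median scaling, no filter, the mean of all probes, the replicate block and that t-test. The cause was not tested. Over all alternatives, 553 values of the 33 genes gave the same call and sign, 18 lost a call, 18 gained one and 5 changed sign.

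Normexp moved the median of all genes tested to -0.20, below the -0.13 of the 33 genes. With it, 7 pathway genes were called higher, 0 of them past 2-fold, and 12 lower, against 4551 of all genes higher and 10485 lower. The methods' t-test called 14 pathway genes lower and 4 higher before adjustment, against 5414 of all genes lower and 4832 higher. After it, 10 pathway genes were lower and 3 higher, against 5834 genes called in all (2583 higher, 3251 lower), with 7 of the further pathway genes and 0 of the 33 genes higher past 2-fold. The median of the 33 genes was -0.22 under quantile normalization and -0.17 under cyclic loess. Signs changed for *HEMA2* (0.0091), *CHLM* (0.034) and *HEMC* (0.036) with normexp, *HEMC* (0.044) with the mean of all probes, *GSA1* over *GSA2* (0.014) with normexp and *PPOX1* over *PPOX2* (-0.093) with quantile normalization, none of them called.

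With each array left out in turn, 10 to 11 pathway genes were called lower and 4 to 5 higher, 9615 to 11003 genes in all (4786 to 5442 higher, 4800 to 5561 lower), and 10 to 11 of the further pathway genes. The median of the 33 genes lay between -0.23 and -0.14. *HEMA2* reached 0.028 and lay at -0.074 at the lowest, and the ratio differences ranged from -0.048 to 0.078 for *GSA1* over *GSA2*, -0.071 to 0.12 for *PPOX1* over *PPOX2* and -0.056 to 0.15 for *FC1* over *FC2*. Deviations of same-numbered arrays from their genotype means were not shared (correlations of -0.025, -0.087 and 0.085), so the numbers were not taken as pairs. With the replicate block, 11 pathway genes were called lower and 4 higher, and *HEMB1* had an adjusted p of 0.0623. No slide or scan block was run, because each genotype had a slide of its own. Signal over background limits dim genes such as *PORA* and *HY2*.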
